A study of Mus musculus with 24 samples.

Results

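Transcripts of 5 chemokine receptor genes, Cxcr3, Cxcr4, Ccr2, Cx3cr1 and Ccrl2, were followed in bulk RNA sequencing of mouse NK cells. They were taken by gene name from a deposited table of 38215 genes and 24 libraries, and each name was found on 1 row. The libraries form 6 groups of 4. KO of FcRγ, the signalling adaptor encoded by Fcer1g, was set against WT in NK cells from tumour-bearing lung, from spleen after IL-15 treatment and from naive spleen. The groups are therefore KO lung, WT lung, KO IL-15 spleen, WT IL-15 spleen, KO naive spleen and WT naive spleen. The lung libraries carry the treatment label naive, so none of them had IL-15. How the KO was made, the age and sex of the mice, the route and length of IL-15 treatment, the tumour and how NK cells were isolated are not stated in the labels. The series calls the 4 libraries of a group biological replicates without saying whether each is 1 animal, so p-values measure the spread between these samples.

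Chemokine receptors are G protein-coupled receptors that steer leukocytes along gradients of chemokines, mostly through inhibitory G proteins. In NK cells, CXCR3 follows the interferon-induced ligands CXCL9, CXCL10 and CXCL11 into inflamed tissue and tumours. CCR2 follows CCL2 and related monocyte chemoattractants, CX3CR1 binds fractalkine on endothelium and marks mature mouse NK cells, and CXCR4 holds cells in bone marrow and other niches through CXCL12. CCRL2 is an atypical receptor that presents chemerin to other cells and is not known to drive migration itself.

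Levels are CPM, the counts of a gene per M counts (M for mega) of a library total scaled by the trimmed mean of M values (TMM), and changes are log2 fold changes ± standard error from edgeR with p-values adjusted over all genes tested. A change was called at an adjusted p under 0.05. Library totals ran from 9.68 to 32.1 M counts. KO naive replicate 1 at 9.68 M and WT lung replicate 1 at 9.77 M were the shallow libraries, and the others held at least 21.18 M. Fcer1g checked the labels: the KO libraries held 1.24 to 16.4 CPM and the WT libraries 248 to 826 CPM, with no overlap. All 9 NK cell markers examined were present in every group, and Ncr1, which encodes NKp46, ran from 355 to 1340 CPM over the 24 libraries. Their sum differed between states, with medians of 11600 CPM in KO and 13000 in WT lung. It was 5920 in KO and 6830 in WT after IL-15, and 15800 in KO and 20100 in WT naive spleen. Each of the 9 was lowest after IL-15, and Eomes alone was highest in lung. The part of this shift in the receptor results was not tested.

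Across states the 5 receptors followed different courses. Cxcr4 and Ccrl2 were highest in lung and lowest after IL-15, Cxcr3 was highest in naive spleen, Ccr2 was high in both spleen states, and Cx3cr1 was nearly absent after IL-15. Per kb of exon, which allows genes to be compared, Cxcr4 was the most abundant of the 5 in lung, with 275 ± 33.7 CPM per kb in KO and 265 ± 59.4 in WT (SD, n = 4). Ccr2 was the most abundant in both spleen states, with 186 ± 24.4 CPM per kb in KO and 218 ± 21.3 in WT after IL-15, and 145 ± 39.4 in KO and 189 ± 13.5 in WT when naive. The lowest level was that of Cx3cr1 after IL-15, at 0.486 ± 0.124 CPM per kb in KO and 0.326 ± 0.201 in WT.

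**Figure D1:**
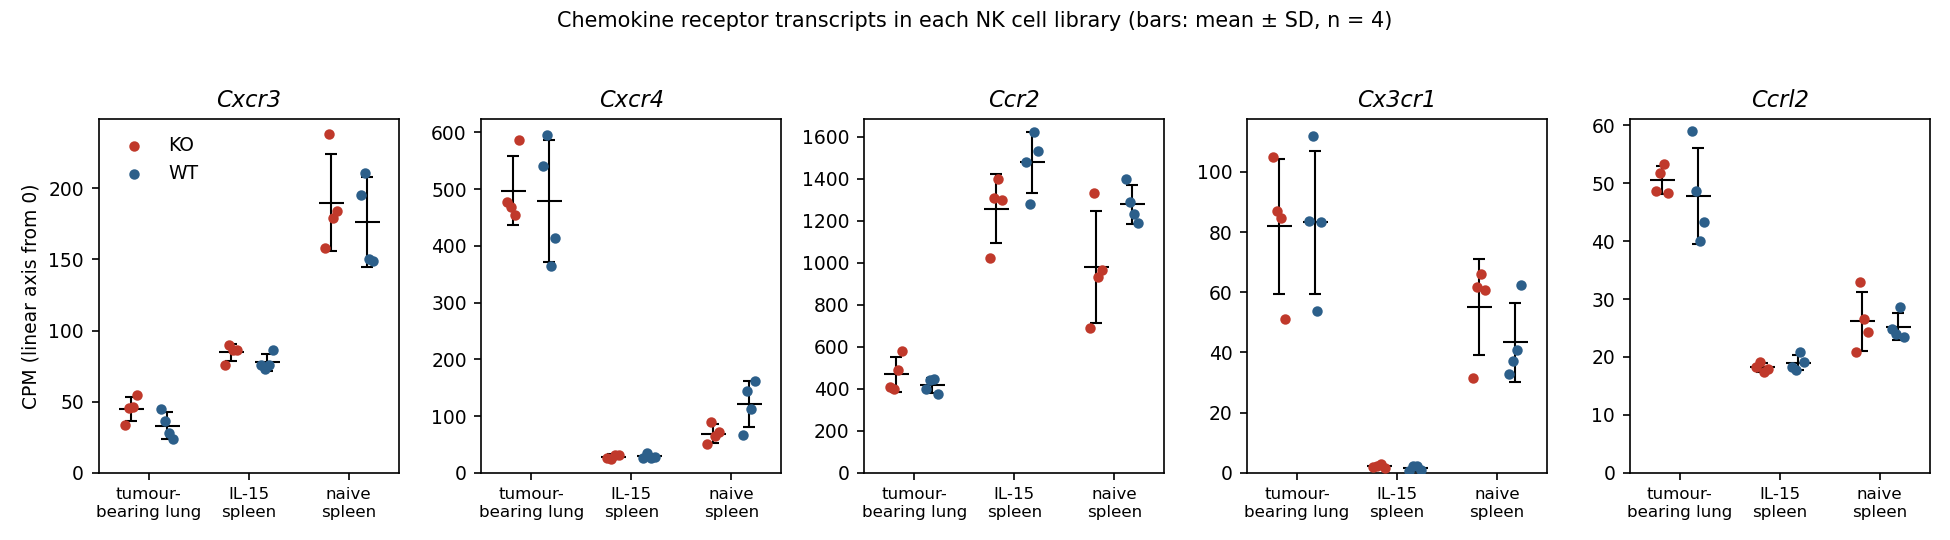
CPM of each receptor gene in every library (linear axes from 0, one scale per gene), KO red and WT blue, with the mean and SD of 4 libraries as black bars. Cxcr4 sits at 364 to 595 CPM in lung against 24 to 34.8 CPM after IL-15, and Cx3cr1 stays at or below 2.95 CPM after IL-15.

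**Figure D2:**
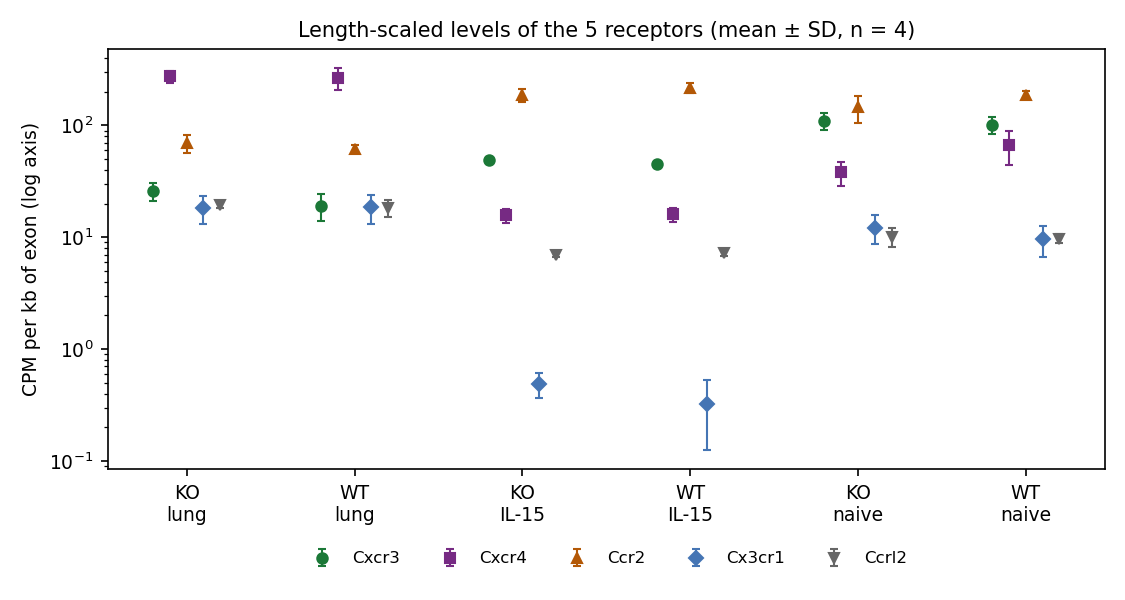
CPM per kb of exon of the 5 receptors in the 6 groups on a log axis, as mean ± SD of 4 libraries. Ccr2 leads in the spleen groups and Cxcr4 leads in lung, at 275 CPM per kb in KO and 265 in WT.

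Cx3cr1, the fractalkine receptor gene (ENSMUSG00000052336), lies on the minus strand of chromosome 9 at 119901616 to 120068283 (GRCm38). Its span takes in Wdr48, Gorasp1, Ttc21a, Csrnp1 and Xirp1, with which it shares 0 exon bases. In lung, Cx3cr1 stood at 105, 87, 84.7 and 51.1 CPM in KO libraries 1 to 4 and at 83.8, 112, 53.8 and 83.5 CPM in WT libraries 1 to 4. After IL-15 it stood at 1.93, 2.21, 2.95 and 1.65 CPM in KO and at 0.499, 2.13, 2.35 and 0.905 CPM in WT. In naive spleen it stood at 31.6, 61.8, 66.2 and 60.8 CPM in KO and at 32.7, 37.1, 40.9 and 62.5 CPM in WT. Every IL-15 library was below every other library, while the lung and naive groups overlapped in both genotypes.

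The Cx3cr1 level after IL-15 was 26.0-fold lower than in naive spleen in KO (−4.70 ± 0.38, adjusted p = 1.04e-08) and 30.3-fold lower in WT (−4.92 ± 0.39, adjusted p = 7.18e-09). In absolute size these changes were within the top 1.8% of genes tested in KO and the top 1.7% in WT. Against IL-15 spleen, Cx3cr1 in lung was 36.6-fold higher in KO (5.19 ± 0.37, adjusted p = 1.27e-11) and 57.5-fold higher in WT (5.84 ± 0.38, adjusted p = 3.32e-12). The counts behind the IL-15 values were small, 52 to 101 per library in KO and 17 to 79 in WT, so the folds carry counting error as well as spread between libraries. Lung against naive spleen gave 0.57 ± 0.30 in KO (95% interval −0.04 to 1.18, adjusted p = 0.128), which was not called, and 1.01 ± 0.30 in WT (adjusted p = 0.00708), which was called. The difference between these genotype effects was −0.44 ± 0.42 (KO effect in lung minus that in naive spleen, adjusted p = 0.681), so the KO and WT responses were not shown to differ. In bulk RNA, fewer cells that carry the receptor and less transcript per cell cannot be told apart.

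Cx3cr1 and Ccr2 are also receptors of monocytes, so a list of monocyte and macrophage markers was summed in the same libraries. Of 13 markers 12 were in the table. Their sum ran from 548 to 1000 CPM in KO lung and from 343 to 577 in WT lung, from 35.3 to 47.9 in KO and 34.8 to 42.0 in WT after IL-15, and from 168 to 275 in KO and 132 to 203 in WT naive spleen. In naive spleen and WT lung most of it came from Ly6c2, which mature NK cells also express, at a mean of 364 CPM in WT lung. In KO lung Ly6c2 was the largest part, at 369 CPM. Lyz2, the lysozyme of myeloid cells, came next in lung, at 313 CPM in KO lung and 93.9 in WT lung. Cd68, a lysosomal protein gene of macrophages, ran the other way, at means of 9.49 CPM in KO and 4.98 in WT lung, 23.7 in KO and 19.8 in WT after IL-15, and 4.12 in KO and 5.10 in WT naive spleen. After IL-15 it was the largest part of the sum, ahead of Ly6c2 at 19.6 CPM in KO and 17.1 in WT. The macrophage growth factor receptor gene Csf1r reached at most 7.74 CPM in any library, and Fcgr1 and C1qc had no counts in the 8 IL-15 libraries. The sum, but not Cd68, moved with Cx3cr1 over the 3 states, and the part of these cells in the Cx3cr1 result was not tested.

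Of all genes with a mean of at least 5 CPM, the one whose 6 group means ran most like those of Cx3cr1 was Klf2, a transcription factor of lymphocyte quiescence and egress. The likeness is the mean absolute difference of the centred log2 group means, here 0.169 over the 6 groups among 9030 genes. Klf2 averaged 1310 CPM in KO lung, 1390 in WT lung, 28.3 in KO and 22.4 in WT after IL-15, and 678 in KO and 672 in WT naive spleen. Nhsl2 (0.374) and Gp1bb (0.397), a platelet glycoprotein gene, came next. The RefSeq promoter of Cx3cr1 is printed because this gene fell most after IL-15. It covers 250 bases before and 50 bases after the start site, and capitals mark the match to CCACCC, a box bound by KLF family factors, at -221 from the start.
Cx3cr1 promoter, chr9:120068247-120068546, minus strand (GRCm38.p6), 5′ to 3′: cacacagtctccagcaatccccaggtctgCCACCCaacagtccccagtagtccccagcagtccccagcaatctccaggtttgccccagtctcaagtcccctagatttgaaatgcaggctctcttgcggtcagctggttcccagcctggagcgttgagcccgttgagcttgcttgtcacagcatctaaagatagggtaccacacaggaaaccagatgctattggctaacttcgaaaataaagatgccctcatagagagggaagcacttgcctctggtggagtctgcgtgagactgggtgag
CCACCC on either strand was present in 31.5% of 32851 mouse promoter windows of this length, so 1 match is common and is given as a description of the sequence.

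Cxcr4, the CXCL12 receptor gene (ENSMUSG00000045382), lies on the minus strand of chromosome 1 at 128588199 to 128592293, 42.6 Mb from Fcer1g. In lung, Cxcr4 stood at 477, 469, 455 and 587 CPM in KO and at 540, 595, 364 and 414 CPM in WT. After IL-15 it stood at 25.9, 24, 31.8 and 32 CPM in KO and at 26.1, 34.8, 26.9 and 28.1 CPM in WT. In naive spleen it stood at 49.9, 89.5, 64.4 and 71.7 CPM in KO and at 66.8, 144, 113 and 161 CPM in WT. The 3 states were fully separated, lung above naive above IL-15, and the genotypes overlapped within each of them.

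Cxcr4 in lung was 7.19-fold higher than in naive spleen in KO (2.85 ± 0.22, adjusted p = 2.5e-10) and 4.13-fold higher in WT (2.04 ± 0.21, adjusted p = 2.15e-08). Against IL-15 spleen, lung was 17.2-fold higher in KO (4.10 ± 0.23, adjusted p = 1.92e-13) and 16.5-fold higher in WT (4.04 ± 0.23, adjusted p = 2.73e-13). After IL-15, Cxcr4 fell by 1.33 ± 0.22 against naive spleen in KO (adjusted p = 0.000105) and by 2.08 ± 0.23 in WT (adjusted p = 4.58e-07). Neutrophils and B cells also carry this receptor. In lung, 6 neutrophil markers summed to 9.85 to 38.2 CPM in KO and 2.86 to 23.4 CPM in WT, and 6 B cell markers to 6.43 to 24.3 CPM in KO and 6.55 to 10.1 CPM in WT. The part of these cells in the Cxcr4 result was not tested.

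The genes with profiles most like that of Cxcr4 were Gadd45a, a stress response gene (0.246), Rgs2, a regulator of G protein signalling (0.268), and the linker histone gene Hist1h1c (0.288). Rgs2 averaged 538 CPM in KO lung and 731 in WT lung, 26.4 in KO and 40.0 in WT after IL-15, and 71.7 in KO and 92.6 in WT naive spleen. The Cxcr4 promoter is printed because the gene changed between all 3 states in both genotypes, as Cxcr3 and Ccrl2 also did. None of the 4 motifs searched was found in it, so it is printed without capitals. It held 20 CpG dinucleotides, against a median of 7 over all promoter windows.
Cxcr4 promoter, chr1:128592250-128592549, minus strand (GRCm38.p6), 5′ to 3′: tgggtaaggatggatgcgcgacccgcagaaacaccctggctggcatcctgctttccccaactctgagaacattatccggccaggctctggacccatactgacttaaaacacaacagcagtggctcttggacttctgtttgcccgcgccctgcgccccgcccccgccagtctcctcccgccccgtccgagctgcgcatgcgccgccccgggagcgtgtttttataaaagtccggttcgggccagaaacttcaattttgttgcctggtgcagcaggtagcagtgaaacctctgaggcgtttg

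Cxcr3, the receptor gene for CXCL9, CXCL10 and CXCL11 (ENSMUSG00000050232), lies on the minus strand of chromosome X at 101731535 to 101734269. In lung, Cxcr3 stood at 33.7, 45.2, 45.9 and 54.6 CPM in KO and at 44.7, 36.4, 27.8 and 24.0 CPM in WT. After IL-15 it stood at 75.8, 90.1, 86.3 and 86.1 CPM in KO and at 75.5, 72.6, 76.0 and 86.3 CPM in WT. In naive spleen it stood at 158, 238, 179 and 184 CPM in KO and at 195, 211, 150 and 149 CPM in WT. No library of one state reached the range of another, with naive spleen highest and lung lowest.

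Against naive spleen, Cxcr3 in lung fell by 2.08 ± 0.18 in KO (adjusted p = 1.6e-09) and by 2.35 ± 0.18 in WT (adjusted p = 1.33e-10), which is 4.23-fold and 5.10-fold lower. After IL-15 it fell by 1.21 ± 0.14 in KO (adjusted p = 1.09e-06) and by 1.19 ± 0.14 in WT (adjusted p = 8.64e-07). Lung was also lower than IL-15 spleen, at −0.94 ± 0.17 in KO (adjusted p = 9.35e-05) and −1.24 ± 0.18 in WT (adjusted p = 2.74e-06). Cxcr3 and Cxcr4 thus moved in opposite directions in lung and in the same direction after IL-15. T cells also express Cxcr3. The 7 T cell markers summed to 14.9 to 26.1 CPM in KO lung and 7.35 to 17.3 in WT lung, to 7.68 to 10.2 in KO and 6.05 to 9.68 in WT after IL-15, and to 30.2 to 55.3 in KO and 16.7 to 25.6 in WT naive spleen. These sums were also highest in naive spleen, where most of the sum was Cd3d, at means of 34.0 CPM in KO and 18.5 in WT. Cd5 was also highest there. Cd3e was highest in naive spleen in KO and in lung in WT. Cd4, Cd8a and Cd8b1 were highest in lung, with Cd8a at 1.41 CPM in KO and 0.531 in WT. Cd6 was highest after IL-15. The part of T cells in the Cxcr3 result was not tested.

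Closest to the Cxcr3 profile were Tspyl3 (0.212), Tlr12 (0.221) and B3galt4 (0.234). The Cxcr3 promoter is printed because T-bet, the T-box factor of NK cells, is known to act on this gene. The T-box letters GGTGTGA were not found in this window, and the sequence has no capitals.
Cxcr3 promoter, chrX:101734098-101734397, minus strand (GRCm38.p6), 5′ to 3′: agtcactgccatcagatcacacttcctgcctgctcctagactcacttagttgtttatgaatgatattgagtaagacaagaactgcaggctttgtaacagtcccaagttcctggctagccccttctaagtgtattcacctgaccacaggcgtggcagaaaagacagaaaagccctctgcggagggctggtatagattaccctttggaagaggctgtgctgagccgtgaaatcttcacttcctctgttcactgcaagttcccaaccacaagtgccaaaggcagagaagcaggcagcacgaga
GGTGTGA on either strand was present in 3.98% of all windows. The other motifs searched on both strands were TTCNNNGAA, a STAT site, present in 8.3% of windows, and ACGTG, 1 form of the core of a hypoxia response element, present in 19.6%. The other form of that core, GCGTG, was not searched. It can be read in the printed Cxcr4, Cxcr3 and Cx3cr1 windows, and its share over all windows was not counted. The Ccr2 window held none of the 4 motifs and 1 CpG. Ccrl2 has 3 annotated start sites, of which 1 window held a match to the hypoxia letters alone and the other 2 held matches to the KLF, T-box and hypoxia letters. In those 2, the pair of KLF matches overlapped each other, and no match overlapped one of another motif.

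Ccr2, the receptor gene for monocyte chemoattractants (ENSMUSG00000049103), lies on the plus strand of chromosome 9 at 124101950 to 124113557. In lung, Ccr2 stood at 408, 397, 489 and 578 CPM in KO and at 398, 443, 447 and 376 CPM in WT. After IL-15 it stood at 1020, 1310, 1400 and 1300 CPM in KO and at 1480, 1280, 1620 and 1530 CPM in WT. In naive spleen it stood at 688, 1330, 931 and 967 CPM in KO and at 1400, 1290, 1230 and 1190 CPM in WT. Every lung library was below every spleen library, and the spleen states overlapped.

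Lung against naive spleen gave a Ccr2 level 2.10-fold lower in KO (−1.07 ± 0.16, adjusted p = 6.46e-06) and 2.94-fold lower in WT (−1.56 ± 0.16, adjusted p = 1.56e-08). Against IL-15 spleen it was 2.73-fold lower in KO (−1.45 ± 0.16, adjusted p = 4.09e-08) and 3.58-fold lower in WT (−1.84 ± 0.16, adjusted p = 7.41e-10). Ccr2 was the receptor of the 5 that did not pass after IL-15, at 0.31 ± 0.16 against naive spleen in KO (95% interval −0.02 to 0.64, adjusted p = 0.118) and 0.20 ± 0.16 in WT (−0.13 to 0.52, adjusted p = 0.306). With an offset for gene length and GC content both passed, at 0.35 in KO (adjusted p = 0.0208) and 0.32 in WT (adjusted p = 0.0314), and without KO naive replicate 2 the KO change passed at 0.50 (adjusted p = 0.00904). The monocyte marker sum, which includes Ly6c2, was highest in lung, where Ccr2 was lowest. The part of monocytes in the Ccr2 result was not tested.

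The deposited Ccr2 counts were not whole in all 24 libraries, so part of its reads had been divided between genes, and its level is uncertain to that extent. The genes with profiles most like that of Ccr2 were Ipp (0.084), Vwa5a (0.086) and Zswim3 (0.108).

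Ccrl2, the atypical chemerin receptor gene (ENSMUSG00000043953), lies on the minus strand of chromosome 9 at 111054835 to 111057270. In lung, Ccrl2 stood at 48.6, 51.8, 53.3 and 48.3 CPM in KO and at 59.0, 48.6, 40.0 and 43.3 CPM in WT. After IL-15 it stood at 18.2, 19.2, 17.4 and 18.0 CPM in KO and at 18.3, 17.8, 20.8 and 19.2 CPM in WT. In naive spleen it stood at 20.8, 33.0, 26.5 and 24.3 CPM in KO and at 24.9, 24.0, 28.6 and 23.5 CPM in WT. It had the narrowest range of the 5, with a highest group mean 2.77 times the lowest, against 56.7 times for Cx3cr1, 17.5 for Cxcr4, 5.71 for Cxcr3 and 3.55 for Ccr2.

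Ccrl2 in lung was 1.93-fold higher than in naive spleen in KO (0.95 ± 0.13, adjusted p = 3.35e-06) and 1.98-fold higher in WT (0.98 ± 0.13, adjusted p = 1.22e-06), and the libraries did not overlap. Against IL-15 spleen it was 2.73-fold higher in KO (1.45 ± 0.13, adjusted p = 2.12e-09) and 2.49-fold higher in WT (1.32 ± 0.13, adjusted p = 1.14e-08). After IL-15 it fell by 0.57 ± 0.14 in KO (adjusted p = 0.00248) and by 0.42 ± 0.14 in WT (adjusted p = 0.0142). The WT call was lost with the length and GC offset and without WT naive replicate 3, and both calls were lost when pairs sharing a library number were blocked, where the KO adjusted p was 0.0544. Maf (0.037), the phosphodiesterase gene Pde4b (0.05) and the interferon gamma receptor gene Ifngr1 (0.056) had the profiles most like it.

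**Figure D3:**
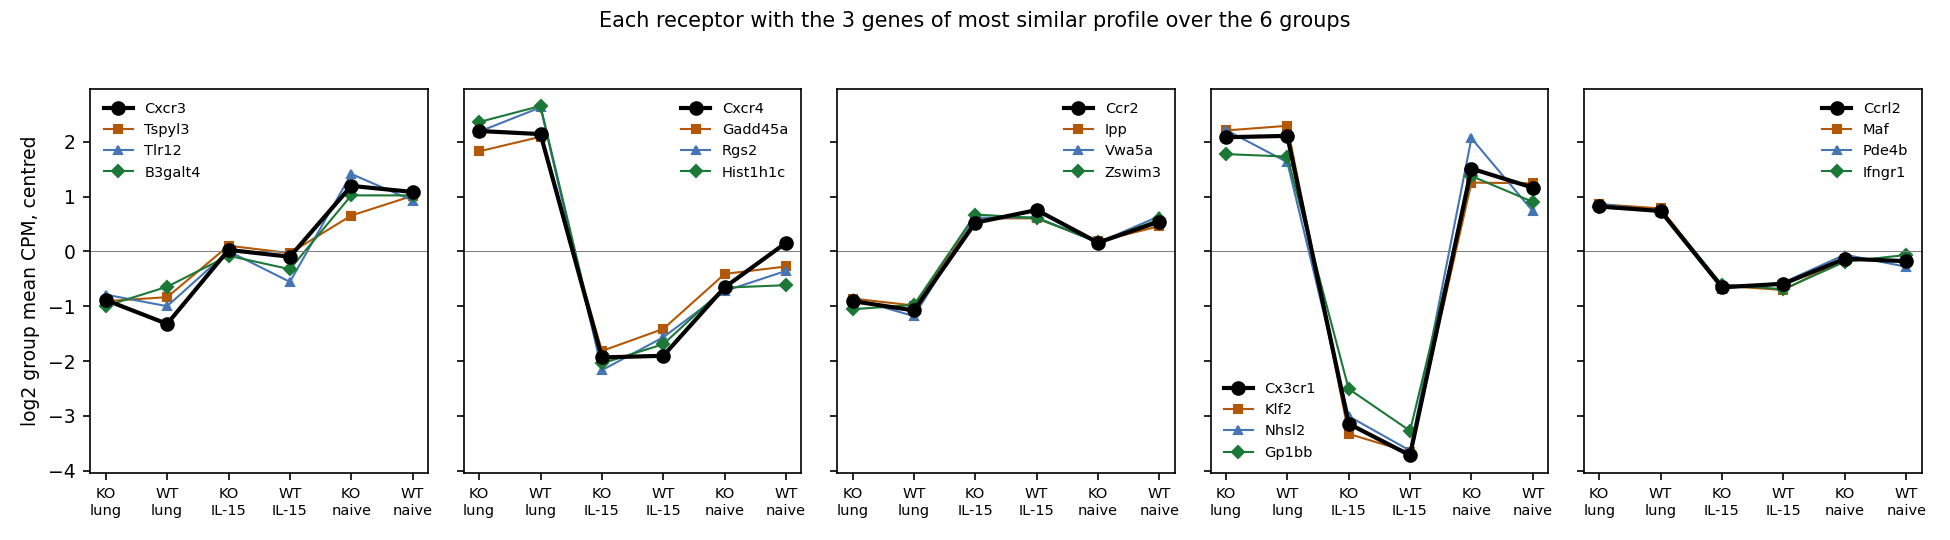
Centred log2 group mean CPM of each receptor (black) and of its 3 genes of most similar profile over the 6 groups. Klf2 tracks Cx3cr1, with a mean absolute difference of 0.169, and Maf tracks Ccrl2, with 0.037.

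Counted together, 4 of the 5 receptors were called after IL-15 in KO, where 41.7% of all genes tested were called, and 4 of 5 in WT, where 52.4% were. All 4 were lower in each genotype. In lung against naive spleen, 4 of 5 were called in KO (42.4% of all genes) and 5 of 5 in WT (49.2%), with Cxcr3 and Ccr2 lower, Cxcr4 and Ccrl2 higher, and Cx3cr1 higher in WT. In lung against IL-15 spleen, 5 of 5 were called in KO (43.8%) and in WT (44.3%), again with Cxcr3 and Ccr2 lower and the other 3 higher. Since close to every other gene passed in these comparisons, a call alone says little about a receptor, and the sizes carry the comparison. Within a genotype, the lung and IL-15 comparisons share the same naive libraries. Lung and spleen differ in tissue and in tumour burden together, which cannot be told apart.

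**Figure D4:**
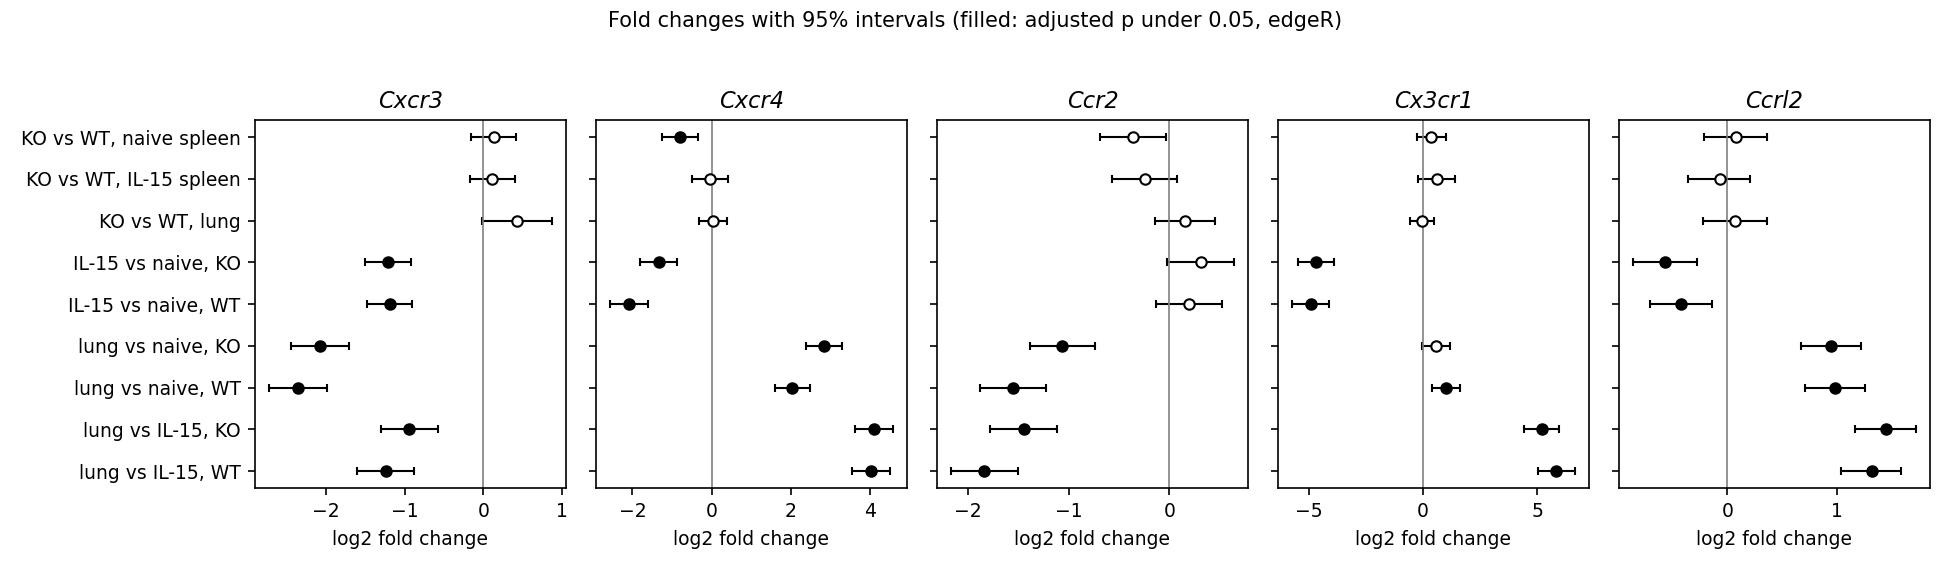
Log2 fold changes of the 5 receptors with 95% intervals in 9 comparisons, filled where the adjusted p is under 0.05. Cx3cr1 moves most, at 5.19 in KO and 5.84 in WT for lung against IL-15 spleen, and Cxcr4 in naive spleen is the one filled point among the KO against WT comparisons.

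The KO of FcRγ went with a change in 1 of the 5 receptors, in 1 of the 3 states. In naive spleen, Cxcr4 was 1.73-fold lower in KO, at 68.9 ± 16.5 CPM in KO and 121 ± 41.5 CPM in WT (−0.79 ± 0.22, 95% interval −1.26 to −0.33, adjusted p = 0.0167, SD over n = 4 libraries). The libraries overlapped, because WT replicate 1 at 66.8 CPM was below KO replicates 2 and 4 at 89.5 and 71.7 CPM. In that comparison 20.3% of all genes tested were called, so 1 of 5 receptors is close to the share of the whole table. Without WT naive replicate 3 that background was 1697 of 13580 genes, against 2705 of 13344 with all libraries. The change was −0.52 with an adjusted p of 0.107 with the length and GC offset, −0.71 with 0.0534 without WT naive replicate 2, and −0.61 with 0.061 without WT naive replicate 4.

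**Figure D5:**
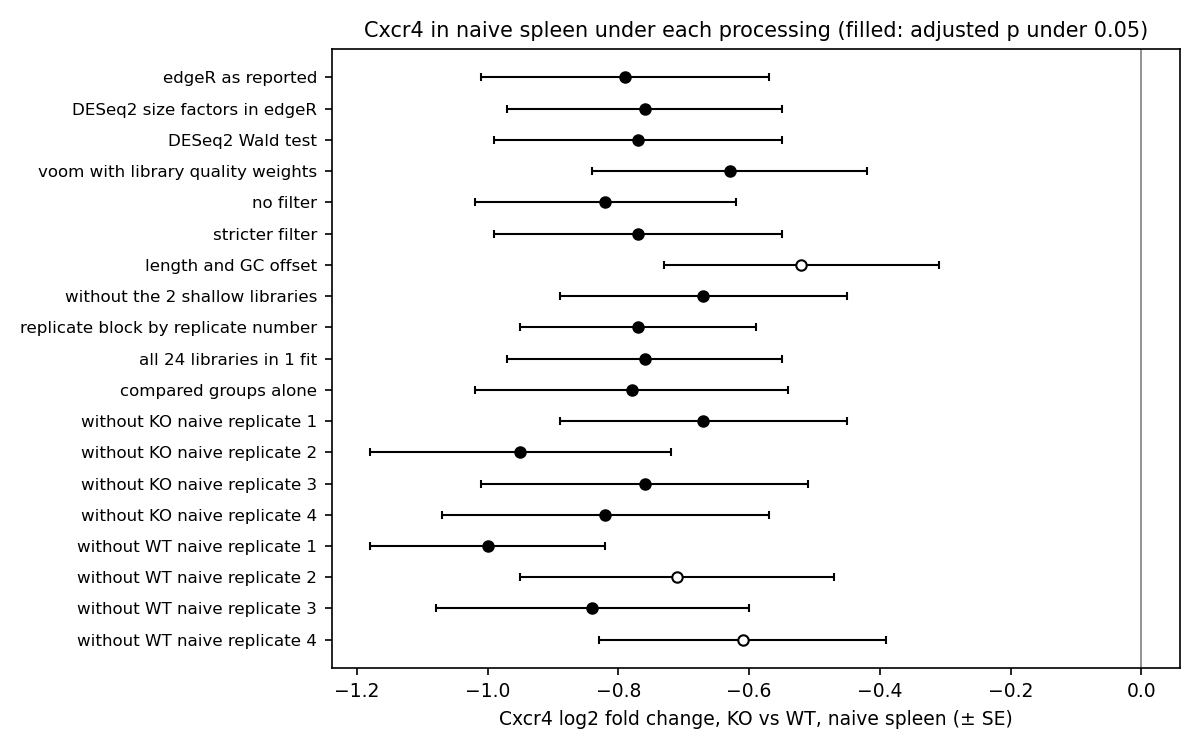
Log2 fold change of Cxcr4 (± SE), KO against WT in naive spleen, under each processing and without each naive library, filled where the adjusted p is under 0.05. All values are below 0, between −1.0 and −0.52, and 3 open points mark the lost calls.

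Genes with a short exon length were lower as a class in the naive KO libraries. The 1607 tested genes of 1 to 2 kb, the range that holds Cxcr4 and Cxcr3, had a median change of −0.18, and the 3928 genes of 4 to 7 kb, the range that holds Ccr2 and Cx3cr1, had 0.04. For KO against WT in the other states these medians were −0.06 and 0.01 after IL-15, and −0.09 and 0.01 in lung. Marker sums moved in naive spleen too: the NK list ran from 14200 to 16700 CPM in KO and from 19200 to 21700 in WT, and the T cell list from 30.2 to 55.3 in KO and from 16.7 to 25.6 in WT. The dendritic cell list (10.6 to 18.4 in KO and 7.06 to 8.87 in WT), the endothelial list (98.3 to 122 in KO and 56.1 to 76.4 in WT) and the mast cell and basophil list (0 to 0.818 in KO and 1.25 to 4.43 in WT) did not overlap either, and the other 8 of the 13 lists did. The endothelial difference lay in Pecam1, at means of 106 CPM in KO and 66.8 in WT. Cdh5 and Kdr averaged 0 CPM in KO and 0.0684 and 0.155 in WT. In the NK list, Gzma averaged 5870 CPM in KO and 8620 in WT. Eomes (678 in KO, 646 in WT) and Itga2 (133 in KO, 83.5 in WT) were higher in KO, and the other NK markers were lower. Each of these 5 marker differences had an exact two-sided permutation p of 0.0286, the smallest that 4 against 4 allows, and an adjusted p of 0.159 over 39 tests. Their part in the Cxcr4 result was not tested.

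The other 4 receptors did not pass in naive spleen with edgeR or DESeq2, and voom called 1 of them, Cx3cr1. Over all genes, voom called 2642 of 13344 in that comparison. Ccr2 was at 980 ± 266 CPM in KO and 1280 ± 91.2 in WT (−0.36 ± 0.16, 95% interval −0.69 to −0.03, adjusted p = 0.113), and passed at −0.55 with an adjusted p of 0.0154 without KO naive replicate 2. Cx3cr1 was at 55.1 ± 15.9 CPM in KO and 43.3 ± 13.2 in WT (0.37, −0.28 to 1.02), with 0.54 and an adjusted p of 0.0454 in voom. In edgeR it was 0.56 without the shallow KO naive replicate 1, the lowest of its group, and 0.62 without WT naive replicate 4, and neither passed (adjusted p = 0.2 and 0.206). Leaving out other single libraries gave 0.25 to 0.37. The intervals were −0.15 to 0.42 for Cxcr3 and −0.21 to 0.36 for Ccrl2, so changes as large as that of Cxcr4 lay outside them.

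After IL-15, 0 of 5 receptors were called between KO and WT with edgeR, where 0.135% of all genes were. An unadjusted p under 0.05 was found for 0 of 5 receptors and for 211 of 13344 genes. DESeq2 and voom also called 0. Cxcr4 was at 28.4 ± 4.10 CPM in KO and 29.0 ± 3.95 in WT (−0.04, 95% interval −0.50 to 0.42). Ccr2 was at 1260 ± 165 CPM in KO and 1480 ± 144 in WT (−0.24, −0.57 to 0.08). Cx3cr1, with few counts, had the widest interval, −0.21 to 1.39.

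In lung, 0 of 5 receptors were called between KO and WT with edgeR, where 0.625% of all genes were. An unadjusted p under 0.05 was found for 0 of 5 receptors and for 1523 of 13129 genes. DESeq2 and voom also called 0. Cxcr3 came nearest, at 44.9 ± 8.57 CPM in KO and 33.2 ± 9.24 in WT (0.43 ± 0.20, 95% interval −0.01 to 0.87, unadjusted p = 0.056, adjusted p = 0.443). Without WT lung replicate 1, the shallow library and the highest of its group at 44.7 CPM, Cxcr3 was at 0.60 and passed with an adjusted p of 0.0467. Cxcr4 was at 497 ± 60.9 CPM in KO and 478 ± 107 in WT (0.04, −0.32 to 0.39), and Cx3cr1 at 81.9 ± 22.4 in KO and 83.3 ± 23.9 in WT (−0.04, −0.55 to 0.47).

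Whether the KO effect differed between states was tested as an interaction, and 0 of 5 receptors were called with edgeR, DESeq2 or voom. The background with edgeR was 1.54% of genes for the IL-15 effect minus the naive effect, 1.15% for lung minus naive and 0.0911% for lung minus IL-15. Cxcr4 had a difference of 0.76 ± 0.31 for IL-15 minus naive (unadjusted p = 0.0254, adjusted p = 0.221) and of 0.80 ± 0.29 for lung minus naive (unadjusted p = 0.0109, adjusted p = 0.179). Ccr2 had 0.49 ± 0.22 for lung minus naive (unadjusted p = 0.0358, adjusted p = 0.291). No other receptor had an unadjusted p under 0.05 in the 3 interactions. Over all genes, 2191 of 13344 had such a p for IL-15 minus naive. For lung minus naive 2148 of 14275 did, and for lung minus IL-15 484 of 14275. The Cxcr4 and Ccr2 differences share the naive libraries. Without WT naive replicate 1, the lowest WT library, Cxcr4 passed in both, at 0.96 with an adjusted p of 0.0492 and at 1.0 with 0.0315.

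Among the other chemokine receptors, a list of 20 genes was present in the table and 7 were expressed enough to be tested in spleen, 9 in lung and 10 over both. None was called between KO and WT in any state or in an interaction by edgeR, DESeq2 or voom. The shares of all genes called with edgeR were 20.3% in naive spleen and at most 1.54% in the other 5 comparisons, and with 7 to 10 genes tested a count of 0 says little about these receptors. At an unadjusted p under 0.05 there was 1 gene in lung (Cxcr7) and 1 in the interaction of lung minus IL-15 (Cxcr6). Over all genes there were 1523 of 13129 in lung and 484 of 14275 in that interaction.

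Cmklr1, the signalling chemerin receptor, also fell after IL-15 in both genotypes. It stood at 9.16 to 12.1 CPM in KO and 7.52 to 13.3 CPM in WT after IL-15, and at 107 to 142 CPM in KO and 90.3 to 118 CPM in WT naive spleen. The fall was −3.49 ± 0.17 in KO (adjusted p = 1.31e-11) and −3.42 ± 0.17 in WT (adjusted p = 1.83e-11). In lung it stood at 75.2 to 111 CPM in KO and at 68.8 to 136 CPM in WT.

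Ccr7, the lymph node homing receptor, rose in lung against naive spleen by 1.80 ± 0.43 in KO (adjusted p = 0.00156) and by 2.67 ± 0.45 in WT (adjusted p = 2.43e-05), with means of 17.1 CPM in KO lung and 18.6 in WT lung. Cxcr6, the CXCL16 receptor, fell there by 0.89 ± 0.31 in KO (adjusted p = 0.0223) and by 1.42 ± 0.32 in WT (adjusted p = 0.000739). The KO call was lost with the length and GC offset and without KO naive replicate 2, KO naive replicate 3 or KO lung replicate 4, with adjusted p up to 0.121. Of the other tested genes, 6 were scarce, with group means at or under 2.03 CPM. Cxcr7, also known as Ackr3, had no counts in any of the 16 spleen libraries, 0.0804 to 1.21 CPM in KO lung and 1.07 to 2.93 CPM in WT lung. Ccbp2, also known as Ackr2, and Ccr1 were at or under 3.39 CPM in every library, as were Ccr1l1, Cxcr5 and Cxcr2, the last with no counts in the 8 IL-15 libraries. Neutrophils carry Cxcr2 and Ccr1, and endothelium carries Ackr3. The 6 neutrophil markers summed to at most 0.323 CPM in any spleen library, below every lung library, while Ly6g, their defining surface marker, had no counts in KO lung and a mean of 0.0572 CPM in WT lung. The 3 endothelial markers summed to 92.8 to 111 CPM in KO and 71.4 to 108 in WT lung, 107 to 138 in KO and 106 to 120 in WT after IL-15, and 98.3 to 122 in KO and 56.1 to 76.4 in WT naive spleen. Most of that sum was Pecam1, at means of 79.8 CPM in KO and 68.7 in WT lung, whereas Cdh5 averaged 15.1 CPM in KO and 16.1 in WT lung and at most 0.0684 CPM in a spleen group. The part of those cells was not tested.

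Of 10 ligands of the 5 receptors, 2 were tested in spleen and 6 in lung, and 0 were called between KO and WT by edgeR, DESeq2 or voom, with 0 at an unadjusted p under 0.05. The shares of all genes called were 20.3% in naive spleen, 0.135% after IL-15 and 0.625% in lung, so 0 of so few genes says little about the ligands. In the interactions edgeR and voom called 0. Over all genes, DESeq2 called 520 of 14275 for lung minus naive. At an edgeR unadjusted p under 0.05 there were 2148 of 14275 for lung minus naive and 484 of 14275 for lung minus IL-15. DESeq2 called Cx3cl1, the fractalkine gene, for lung minus naive (edgeR unadjusted p = 0.00457, adjusted p = 0.126), and Cxcl12 had an unadjusted p of 0.0312 for lung minus IL-15 (adjusted p = 1). Cx3cl1 stood at 0.389 to 1.13 CPM in KO and 0.794 to 1.14 in WT lung, and at 0 to 3.54 CPM in KO and 0 to 0.119 in WT naive spleen, with the highest value in the shallow KO naive replicate 1. Mif, a cytokine that also binds CXCR4, rose after IL-15 by 2.04 ± 0.16 in KO (adjusted p = 8.96e-09) and by 1.78 ± 0.16 in WT (adjusted p = 3.76e-08), at 166 to 206 CPM in KO and 146 to 248 in WT after IL-15 and 32.9 to 53.0 in KO and 48.7 to 57.6 in WT naive spleen. Cxcl10 was called higher in lung than in naive spleen, by 1.65 ± 0.36 in KO and 1.65 ± 0.36 in WT, with means of 7.43 CPM in KO lung and 6.01 in WT lung. Cxcl12 averaged 2.01 CPM in KO lung and 2.35 in WT lung, and at most 0.091 CPM in a spleen group. Ccl2, a CCR2 ligand, averaged 1.13 CPM in KO lung and 0.932 in WT lung, and at most 0.0159 CPM in a spleen group.

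The next list held genes that carry or end the receptor signal. Of 26 such genes, 24 were tested in spleen and 25 in lung. In naive spleen 5 were higher in KO (Pik3r5, Dock2, Grk6, Plcb3 and Ptk2b) and 2 were lower (Gnai3 and Rgs18), against 20.3% of all genes called in that comparison, with a list median of 0.01 against 0 over all genes. After IL-15, edgeR called 0 between KO and WT, against 0.135% of all genes. DESeq2 and voom each called 2 (Rgs2 and Rgs18), against 30 and 54 of all 13344 genes tested. The same 2 had an edgeR unadjusted p under 0.05, as did 211 of all genes, and the list median was 0.05. In lung edgeR called 0, against 0.625% of all genes. At an edgeR unadjusted p under 0.05 there were 4 (Grk6, Rgs2, Rgs16 and Plcb2), against 1523 of all 13129 genes tested. DESeq2 called 2 (Rgs2 and Rgs16) and voom 1 (Rgs16), against 316 and 268 of all genes, and the list median was 0.08. The largest of the 7 naive changes was in Plcb3, a phospholipase C, at 1.15 ± 0.24 (adjusted p = 0.00343). Ptk2b, the kinase PYK2, rose by 0.53 ± 0.12 (adjusted p = 0.0058) and Dock2, the exchange factor for RAC in migrating lymphocytes, by 0.69 ± 0.15 (adjusted p = 0.00494). With the length and GC offset only Dock2 of the 7 kept its call, at 0.31 (adjusted p = 0.036), while Ptk2b was at 0.12 (adjusted p = 0.433) and Plcb3 at 0.69 (adjusted p = 0.0632). In the 3 interactions edgeR called 0 of the list, against at most 1.54% of all genes. For IL-15 minus naive, voom called 4 (Pik3r5, Dock2, Plcb3 and Ptk2b) and DESeq2 1 (Plcb3), against 1320 and 686 of 13344 genes. For lung minus naive, voom called 2 (Dock2 and Ptk2b), against 502 of 14275 genes, and DESeq2 0. The tools thus differ on whether these KO effects differ between states. Rgs2, a regulator of G protein signalling described here after its values were seen, did not pass in edgeR (in naive spleen voom called it and DESeq2 did not), at −0.46 ± 0.13 in lung (adjusted p = 0.197), −0.61 ± 0.14 after IL-15 (adjusted p = 0.134) and −0.35 ± 0.13 in naive spleen (adjusted p = 0.0737). It stood at 474 to 566 CPM in KO lung and 637 to 889 in WT lung, at 22.6 to 31.9 in KO and 33.7 to 46.4 in WT after IL-15, and at 62.4 to 78.5 in KO and 82.8 to 104 in WT naive spleen. The 4 KO libraries were thus below the 4 WT libraries in each state. Rgs18 was also separated after IL-15 (4.3 to 6.8 CPM in KO, 9.21 to 13.8 in WT). In naive spleen it stood at 5.38 to 8.44 CPM in KO and 10.2 to 13.7 in WT, and in lung the genotypes overlapped. Rgs16 was separated in lung only, and Rgs1 in no state. The share of all genes separated in this way was not counted, so the separation alone says little about these genes. Rgs2 lies on chromosome 1, as the targeted Fcer1g does, and the part of that location was not tested. The locations of Rgs1, Rgs16 and Rgs18 are not given here.

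Of the 4 regulators of G protein signalling in this list, Rgs1, Rgs2 and Rgs16 rose in lung against naive spleen in both genotypes and Rgs18 fell. In lung, Rgs1, which ends chemokine receptor signals, stood at 560 to 628 CPM in KO and 594 to 709 in WT, against 32.4 to 42.8 in KO and 26.6 to 52.3 in WT naive spleen. The change was 4.02 ± 0.16 in KO (adjusted p = 2.03e-15) and 4.09 ± 0.16 in WT (adjusted p = 9.23e-16). After IL-15 Rgs1 did not pass, at −0.27 in KO (adjusted p = 0.209) and −0.15 in WT (adjusted p = 0.477). Rgs18 fell in lung by 1.13 ± 0.28 in KO (adjusted p = 0.00194) and by 1.35 ± 0.27 in WT (adjusted p = 0.000212), and did not pass after IL-15, at −0.43 in KO (adjusted p = 0.125) and −0.22 in WT (adjusted p = 0.397). Rgs16 rose after IL-15 by 4.65 ± 0.29 in KO (adjusted p = 3.73e-10) and 4.47 ± 0.28 in WT (adjusted p = 4.25e-10), and in lung by 4.84 ± 0.26 in KO and 5.21 ± 0.26 in WT. Arrb1, a beta-arrestin that uncouples receptors from G proteins, rose after IL-15 by 2.04 ± 0.16 in KO (adjusted p = 6.66e-09) and by 2.12 ± 0.16 in WT (adjusted p = 3.47e-09), at means of 253 CPM in KO and 234 in WT after IL-15 and 59.7 in KO and 53.5 in WT naive spleen. Rgs2 fell after IL-15 by 1.48 ± 0.14 in KO (adjusted p = 8.3e-08) and by 1.22 ± 0.14 in WT (adjusted p = 5.86e-07), and rose in lung by 2.91 ± 0.14 in KO and 3.05 ± 0.14 in WT. Counts of the list over states were 3 higher and 5 lower of 24 after IL-15 in KO, where 41.7% of all genes were called, and 7 higher and 6 lower of 24 in WT, where 52.4% were. In lung against naive spleen they were 11 higher and 4 lower of 25 in KO (42.4% of all genes) and 12 higher and 5 lower of 25 in WT (49.2%).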

How the data were processed

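RNA sequencing of poly(A) RNA from mouse NK cells gave 24 libraries. The authors deposited expected counts per gene, which need not be whole: 5.47% of values were not. The submitters' processing notes name GRCm38 as the build and list RSEM 1.2.30, STAR 2.5.2a and cutadapt 1.9, and per the labels' protocols the library kit was directional. Neither the notes nor the labels give the annotation release or the strand setting. Symbols on several IDs numbered 290, none of them a receptor described here.

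After rounding, genes that passed filterByExpr were TMM-scaled and tested with the quasi-likelihood method of edgeR 4.0.16 under R 4.3.3, which was checked on simulated data, with Benjamini-Hochberg adjustment over all genes tested and a threshold of 0.05. The 16 spleen libraries were fitted together, the 8 lung libraries together, and all 24 for contrasts across tissues. Intervals use the test's degrees of freedom. CPM were computed over the 24 libraries, and the similarity of profiles used a prior count of 2. Named genes were the 5 receptors, Fcer1g, every tested gene of the other receptor list, up to 3 per comparison by smallest p of the ligand and signalling lists, and 3 of most similar profile for each receptor; part of the list genes are printed, and 1 tested gene of the other receptor list is not reported here. The receptors and lists were chosen with earlier results of these data known.

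Exon lengths came from GENCODE M21, which held 95.3% of the table's genes. Promoter windows were taken from RefSeq on GRCm38.p6, with a window for all 5 receptors. The alternatives tried were an offset for length and GC, no filter or a stricter one, DESeq2 1.42.0 or only its size factors, voom in limma 3.58.1 with library quality weights, removal of the 2 shallow libraries, replicate blocks, other sets of libraries in the fit, and leaving out each library. Marker sums were compared by exact permutation.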

Additional observations from a re-analysis of the deposited data

Results flagged for a closer look

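Within each group of 4 libraries, the gap of an extreme library to its neighbour was compared with the range of the group by Dixon's test, for 30 sets of 5 receptors in 6 groups. Chance flags about 1 in 20 groups. In KO lung, Cxcr4 in replicate 4 stood at 587 CPM, above the 455 to 477 CPM of the other 3. In KO naive spleen, Cx3cr1 in replicate 1 stood at 31.6 CPM, below the 60.8 to 66.2 CPM of the other 3, and this was the library with 9.68 M counts.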

How the results depend on the processing

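Of 28 receptor results called, 25 kept their call and direction in every alternative run; the exceptions were Cxcr4 in naive KO against WT and Ccrl2 after IL-15 in KO and in WT, given in the report. Of 32 not called, 14 kept their side and direction and 11 changed sign somewhere. The number of receptors called between KO and WT in naive spleen, 1 as reported, was 2 with voom (Cx3cr1 added) and 0 with the length and GC offset, and 0 to 2 when single libraries were left out. In lung it was 0 as reported and 1 without the 2 shallow libraries, and 0 to 1 when single libraries were left out. For the KO effect after IL-15 minus naive and in lung minus naive it was 0 to 1 when single libraries were left out. Sign changes of results not called were Cxcr4 in KO against WT after IL-15 (−0.04 as reported, 0 with voom and 0.04 with the length and GC offset), Cxcr3 in the KO effect of IL-15 minus naive (0.02 with no filter), Ccrl2 in that of lung minus naive (0.03 with no filter) and Ccr2 in that of IL-15 minus naive (−0.02 without the 2 shallow libraries). Leaving out single libraries gave these ranges for KO against WT: Cxcr3 0 to 0.23 and Ccrl2 −0.06 to 0.17 in naive spleen, Cxcr4 −0.1 to 0.07 after IL-15, and Cxcr4 −0.08 to 0.16, Cx3cr1 −0.21 to 0.14 and Ccrl2 −0.01 to 0.19 in lung. For IL-15 minus naive they were Cxcr3 −0.11 to 0.11, Ccr2 −0.02 to 0.31 and Cx3cr1 −0.07 to 0.59, for lung minus naive Ccrl2 −0.12 to 0.11, and for lung minus IL-15 Cxcr4 −0.05 to 0.19. Of 146 list gene results called, 110 kept their call, and Gnb2 changed sign with the length and GC offset, at −0.17 in lung against naive WT and −0.02 in lung against IL-15 KO. The cause of these changes was not tested.

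Correlations of same-numbered deviations ran from −0.19 to 0.25 and in no comparison were all above 0.1. Naive and IL-15 libraries shared the library numbers 1, 2 and 3 in WT and 6, 7 and 8 in KO. The labels do not say what these numbers stand for, so the correlations cannot decide whether libraries were paired. With the replicate block, Cxcr4 in naive KO against WT was −0.77 with an adjusted p of 0.00864, and no receptor call between KO and WT changed; blocking by library number lost the 2 Ccrl2 calls after IL-15. Over all genes, calls in KO against WT in lung numbered 82 with edgeR, 316 with DESeq2, 268 with voom, 129 with no filter, 132 with the length and GC offset and 448 without the 2 shallow libraries. After IL-15 they numbered 18, against 30 with DESeq2 and 54 with voom. The interactions gave 205 for IL-15 minus naive, against 686 with DESeq2, 1320 with voom, 316 with the stricter filter and 368 with all 24 libraries. They gave 164 for lung minus naive, against 520, 502, 276 with the stricter filter and 506 without the 2 shallow libraries, and 13 for lung minus IL-15, against 33, 65 and 20 with the length and GC offset. In naive spleen 2705 genes were called between KO and WT, against 1868 with the length and GC offset and 1843 with the compared groups alone. With the replicate block the counts were lower, at 2458 in naive spleen, 62 in lung, 14 after IL-15, and 149, 137 and 10 for the interactions in the order above. Leaving out single libraries gave 1697 (without WT naive replicate 3) to 3347 in naive spleen, 14 to 25 after IL-15 and 41 (without KO lung replicate 2) to 448 (without WT lung replicate 1) in lung. For the interactions it gave 83 (without KO IL-15 replicate 4) to 714 (without WT IL-15 replicate 2) for IL-15 minus naive. For lung minus naive it gave 72 to 570, the latter without WT lung replicate 1. The 72 came without WT naive replicate 2, KO lung replicate 3 or WT lung replicate 3. For lung minus IL-15 it gave 7 to 18. Depth limits Cx3cr1 after IL-15, where a library held as few as 17 counts.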
